A study of Mus musculus with 6 samples.

Results

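Complement is the plasma and cell-surface cascade that tags, lyses and signals the presence of damaged or foreign material, and its components, regulators and receptors were followed in mouse liver after ischemia and reperfusion (I/R), with and without ginsenoside Rk2. The set was a list of 33 gene names: 22 genes whose products are made mainly by hepatocytes, 8 whose products come mainly from macrophages and other myeloid cells, and 3 membrane regulators. Of these, 32 had a row among the 15454 rows of the gene count table and 31 passed the filter on low counts that left 12411 genes for testing. Fcn1 had no row, and Cd46 had 4 to 12 reads a library and was not tested.

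All 6 livers came from male C57BL/6 mice aged 8 to 10 weeks in which 75% of the liver had undergone warm ischemia followed by reperfusion. The I/R group (n = 3) had received vehicle, and the I/R+Rk2 group (n = 3) had received ginsenoside Rk2, a saponin of processed ginseng. Both were injected intraperitoneally, 2 days before surgery and again as reperfusion began. The paper gave Rk2 to mice at a lower and a higher dose, and states that its liver RNA-seq used the higher. RNA-seq libraries were made from 250 ng of total RNA of each liver. The genotype was wild type in both groups, and sham-operated livers were not analysed here, so each difference is between injured livers with and without Rk2.

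The cascade starts in 3 ways. In the classical pathway C1q binds its targets and activates the proteases C1r and C1s, in the lectin pathway mannose-binding lectins do so with the proteases MASP-1 and MASP-2, and the alternative pathway runs on factor B and is stabilised by properdin. All converge on the cleavage of C3 and C5, which releases the small peptides C3a and C5a, read by receptors on myeloid cells, and starts assembly of the membrane attack complex from C5b to C9. Most soluble components in plasma are secreted by hepatocytes, several of them as acute-phase proteins, whereas the liver's C1q, properdin and anaphylatoxin receptor transcripts come largely from resident macrophages and infiltrating myeloid cells.

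Totals were 16809613 to 35618074 counts a library, and the members took 1.73 to 2.24% of counts in I/R and 1.59 to 1.78% in I/R+Rk2. CPM below are counts scaled to the library total and by TMM, and differences are fitted log2 fold changes of I/R+Rk2 over I/R. Their standard error (SE) was derived as the absolute log2 fold change divided by the square root of the edgeR F statistic. A gene was called at an edgeR adjusted p under 0.05. Hepatocyte markers were abundant in every library, with 15 of 15 tested and a summed level of 73795 to 84977 CPM in I/R and 108198 to 134075 CPM in I/R+Rk2. The T and B cell list had 1 of its 10 genes tested and summed to at most 4.29 CPM in any library.

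Complement transcripts moved in both directions: the receptors and properdin fell, while the hepatocyte-made transcripts moved by smaller amounts both up and down (plot of log2 fold changes). Among the 31 members tested, 6 fell, 7 rose and 18 did not pass the test, against 23.7% of all genes tested that fell and 20.3% that rose. These shares of the whole set lay near the background, and the median over members was 0.02, beside -0.01 over all genes tested. The 22 hepatocyte-made members gave 2 that fell and 7 that rose, with a median of 0.15 and a range of -0.58 to 0.81. The 7 macrophage-made members tested gave 4 that fell and none that rose, with all 7 below 0 and a median of -1.31. Past a fold of 2 as well as the adjusted p, 4 members fell (C5ar1, C3ar1, C5ar2 and Cfp), where 11.4% of all genes did so, and none rose, where 3.17% of all genes did so. The ranges of the 2 groups did not overlap in CPM for 19 of the 31 members, beside 57.4% of all genes tested. The balance of calls depended on the scaling: with library size alone 9 members fell and 3 rose, and that scaling moved the median of all genes to -0.17.

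**Figure D1:**
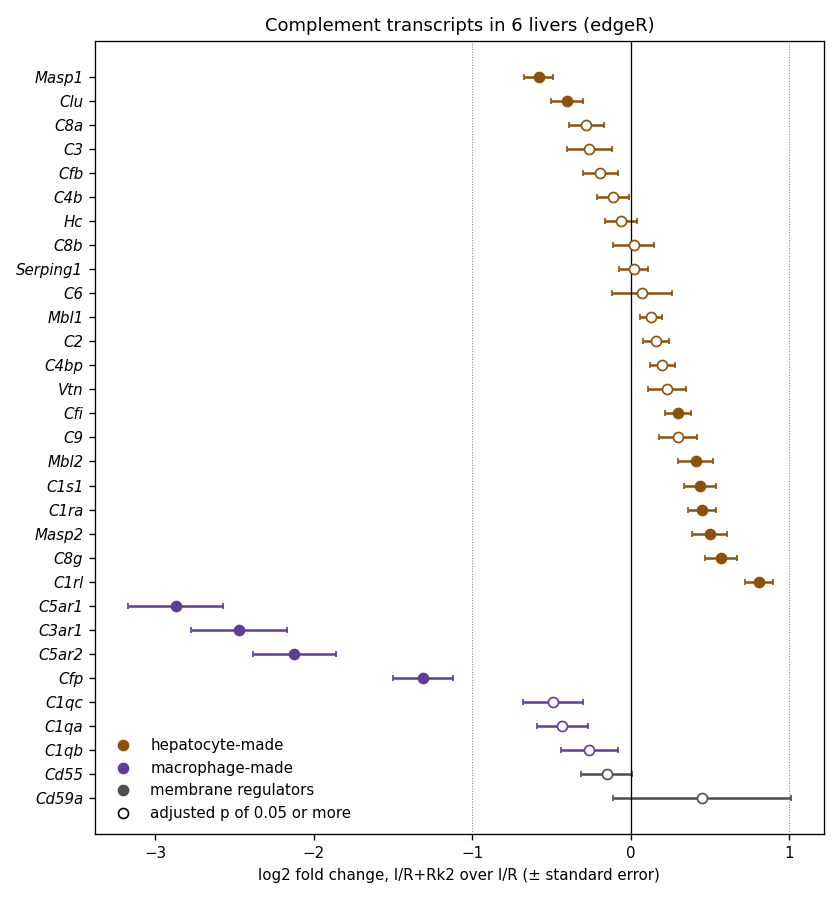
Fitted log2 fold change of I/R+Rk2 over I/R (horizontal axis, points, bars for the standard error) for the 31 members tested, 3 livers a group, with filled points for an edgeR adjusted p under 0.05 and dotted lines at a fold of 2. Hepatocyte-made members spread on both sides of 0, from -0.58 to 0.81, and all 7 macrophage-made members lie below 0.

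The 3 anaphylatoxin receptors fell most of all members. C5ar1, the main signalling receptor for C5a on neutrophils and macrophages, stood at 33.2, 26.7 and 38.2 CPM in I/R and at 6.68, 3.70 and 2.95 CPM in I/R+Rk2, from 637 to 958 reads a library in I/R and 48 to 159 in I/R+Rk2. Every treated liver was far below every untreated liver, and the log2 fold change was -2.87 (SE 0.30, edgeR adjusted p = 0.000767), or 7.30 times lower. C3ar1, the receptor for C3a, stood at 6.41, 5 and 7.10 CPM in I/R and 1.60, 0.918 and 0.798 CPM in I/R+Rk2. The groups of C3ar1 were likewise apart, with a log2 fold change of -2.47 (SE 0.30, edgeR adjusted p = 0.00116), although its reads in I/R+Rk2 were only 13 to 38 a library. C5ar2, a second C5a receptor that does not couple to G proteins, stood at 3.70, 3.04 and 3.23 CPM in I/R and 0.757, 0.592 and 0.983 CPM in I/R+Rk2, again without overlap. Its log2 fold change was -2.12 (SE 0.26, edgeR adjusted p = 0.00122), from 71 to 81 reads a library in I/R and 16 to 20 in I/R+Rk2.

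Per transcript length C5ar1 was the most abundant of the 3 receptors, with a mean of 12.8 FPKM (SD 2.34, n = 3) in I/R and 1.56 FPKM (SD 0.746, n = 3) in I/R+Rk2. C3ar1 had 1.42 and 0.225 FPKM and C5ar2 0.962 and 0.198 FPKM as the means of the same groups. Within a library the FPKM ratio of C5ar1 to C5ar2 was 12.2, 11.9 and 16 in I/R and 11.9, 8.73 and 4.06 in I/R+Rk2, so the ranges touched at 11.9. C5ar1 (chr7:16246743-16259540, minus strand) and C5ar2 (chr7:16234585-16244154, minus strand) are neighbours in GENCODE M21 on GRCm38, the assembly also called mm10, and C3ar1 lies at chr6:122847138-122856161 on the minus strand.

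**Figure D2:**
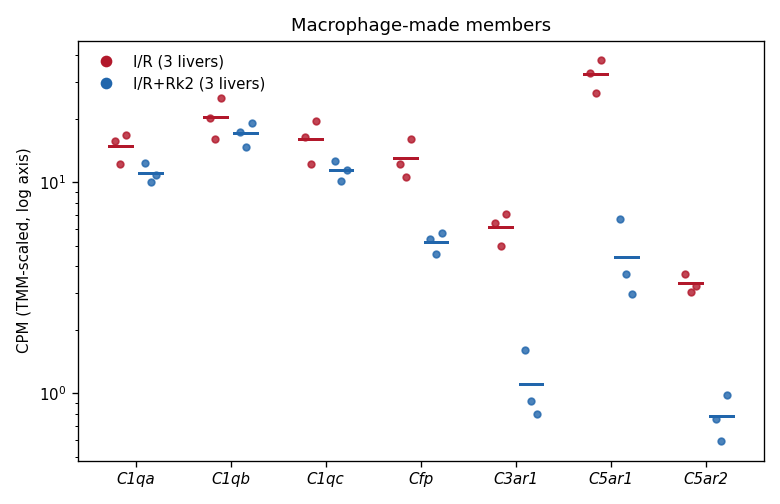
CPM (log axis) of the 7 macrophage-made members tested, with a point for each liver and a bar at the group mean, I/R in red and I/R+Rk2 in blue. For Cfp, C3ar1, C5ar1 and C5ar2 all 3 treated livers lie below all 3 untreated livers, and for the C1q chains the groups come close or overlap.

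Markers of myeloid cells moved with these receptors. All 11 monocyte markers fell (summed level 304 to 360 CPM in I/R and 25.3 to 45.2 CPM in I/R+Rk2), among them Ccr2, the receptor that draws monocytes out of the marrow, by 4.41 on the log2 scale. Of 14 neutrophil markers 13 fell, with a summed level of 672 to 815 CPM in I/R and 128 to 281 CPM in I/R+Rk2. The 11 Kupffer cell markers gave 4 that fell (Cd68, Csf1r, Cd163 and Cd5l) and 1 that rose (Nr1h3). Their median log2 fold change was -0.69, with 9 below 0 and 1 above. Their sums overlapped, at 191 to 230 CPM in I/R and 164 to 210 CPM in I/R+Rk2. Slc40a1 (means of 57.6 CPM in I/R and 56.6 in I/R+Rk2) and Nr1h3 (41.2 and 73.6) weighed most in these sums, and neither fell. Which cells these transcripts came from cannot be told in bulk RNA, so the sums are not a measure of Kupffer cells alone. No marker of the 3 lists was at 0 in either group's mean. The part of these cell types in the receptor values was not tested, and in bulk RNA fewer cells of a type and less RNA per cell cannot be told apart.

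Promoter sequences are shown for the 3 receptors and Cfp, the members that fell past a fold of 2, for C1rl, which had the highest log2 fold change, and for C3, the hub of the cascade. RefSeq windows (GRCm38.p6, 250 bases before to 50 after a start site) were found for 24 of the 33 members. Given below are the 250 bases before the start, 5′ to 3′ on the gene's strand, with matches to any of 6 motifs in capitals. For C5ar1, whose RefSeq start lies inside the gene as GENCODE M21 draws it, only 29 bases around its match are given, from chr7:16259386-16259414 on the minus strand. The others are C5ar2 at chr7:16244155-16244404, C3ar1 at chr6:122856158-122856407, Cfp at chrX:20931556-20931805 and C3 at chr17:57228137-57228386, all on the minus strand, and C1rl at chr6:124492863-124493112 on the plus strand.
C5ar1: agagacttccTTCCTTTTCcaagttgaca
C5ar2: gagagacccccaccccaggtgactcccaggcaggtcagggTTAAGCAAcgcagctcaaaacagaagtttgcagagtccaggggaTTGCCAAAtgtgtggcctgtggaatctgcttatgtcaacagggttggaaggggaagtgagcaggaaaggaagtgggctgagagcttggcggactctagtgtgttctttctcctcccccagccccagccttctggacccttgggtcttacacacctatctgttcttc
C3ar1: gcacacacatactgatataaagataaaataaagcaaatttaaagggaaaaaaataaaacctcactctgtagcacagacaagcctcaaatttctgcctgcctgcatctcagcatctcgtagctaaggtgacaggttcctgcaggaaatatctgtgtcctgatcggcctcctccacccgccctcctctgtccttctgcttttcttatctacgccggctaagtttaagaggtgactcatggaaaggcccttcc
Cfp: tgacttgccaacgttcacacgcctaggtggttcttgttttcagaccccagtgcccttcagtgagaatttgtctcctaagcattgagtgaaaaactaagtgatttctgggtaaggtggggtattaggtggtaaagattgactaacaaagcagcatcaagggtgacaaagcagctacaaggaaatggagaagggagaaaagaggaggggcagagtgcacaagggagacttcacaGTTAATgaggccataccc
C1rl: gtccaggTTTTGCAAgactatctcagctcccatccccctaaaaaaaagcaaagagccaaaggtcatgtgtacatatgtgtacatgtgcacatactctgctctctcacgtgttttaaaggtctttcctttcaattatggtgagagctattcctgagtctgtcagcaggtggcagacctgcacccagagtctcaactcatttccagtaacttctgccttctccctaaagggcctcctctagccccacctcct
C3: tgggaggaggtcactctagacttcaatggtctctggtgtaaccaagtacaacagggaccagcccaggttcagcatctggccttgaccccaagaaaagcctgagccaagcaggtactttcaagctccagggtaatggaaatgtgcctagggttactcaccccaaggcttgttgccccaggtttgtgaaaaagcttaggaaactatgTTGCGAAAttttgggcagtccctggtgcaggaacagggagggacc

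The motifs were searched on both strands of the whole 300-base windows, where overlapping matches were allowed. C5ar1 held an interferon-response core (GAAANNGAA), which 8.56% of 32851 promoter windows of the genome hold. The first C5ar2 window held 2 C/EBP motifs (TTGCNNAA), and C1rl and C3 held 1 each, beside 10.8% of all windows with at least 1. Cfp held an HNF1 half-site (GTTAAT), which is shorter than a full HNF1 site, and none of the 6 motifs was found in the window of C3ar1. Of 27 member windows, 8 held the HNF1 half-site (29.6%), beside 7.10% of all windows. These were windows of 6 of 15 hepatocyte-made genes, of Cfp and of Cd55. A STAT motif (TTCNNNGAA) was in 14.8% of member windows and 8.30% of all, a PU.1 motif (GAGGAAGT) in 3.70% and 3.20%, and a kappa B motif in 3.70% and 8.46%. A match describes these letters only and does not show a bound site.

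Properdin fell while the C1q chains did not pass the test. Cfp, which encodes properdin, the stabiliser of the alternative-pathway convertase, stood at 12.3, 10.6 and 16.1 CPM in I/R and 5.42, 4.56 and 5.77 CPM in I/R+Rk2. All treated livers were below all untreated livers, with a log2 fold change of -1.31 (SE 0.19, edgeR adjusted p = 0.00214). C1qa, the A chain of the C1q recognition molecule, stood at 15.8, 12.3 and 16.8 CPM in I/R and 12.4, 10.0 and 10.9 CPM in I/R+Rk2. Its ranges overlapped by a narrow margin, and the test was not passed (edgeR adjusted p = 0.0588, log2 fold change -0.43).

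The B and C chains gave values on the same side of 0. C1qb was 20.2, 16 and 25.2 CPM in I/R and 17.4, 14.7 and 19.2 CPM in I/R+Rk2 (edgeR adjusted p = 0.286, log2 fold change -0.26), with overlapping groups. C1qc was 16.5, 12.2 and 19.5 CPM in I/R and 12.6, 10.2 and 11.5 CPM in I/R+Rk2 (edgeR adjusted p = 0.0674, log2 fold change -0.49), also overlapping. Thus 0 of 3 chains passed with edgeR and 0 with DESeq2, and 2 had an unadjusted p under 0.05. C1qa and C1qc did pass in some other fits: without I/R replicate 2, the library with the lowest values of all 3 chains in its group, the edgeR adjusted p was 0.0271 for C1qa and 0.0190 for C1qc, and without I/R+Rk2 replicate 1 it was 0.0428 for C1qa. With library size alone the edgeR adjusted p was 0.0339 for C1qa and 0.0341 for C1qc, and both also passed with limma on log2(FPKM + 1), at 0.0288 and 0.0337, and on log2(FPKM + 0.1), at 0.0299 and 0.0350, each with the filter on FPKM. The 3 genes lie side by side on chromosome 4, between chr4:136880129 and chr4:136898803, and their summed level was 35.2 to 52.7 FPKM in I/R and 28.1 to 35.1 FPKM in I/R+Rk2, which just failed to overlap. The FPKM ratio of C1qc to C1qb was 0.741, 0.693 and 0.700 in I/R and 0.654, 0.627 and 0.543 in I/R+Rk2, lower in every treated liver, a description without a test.

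Among hepatocyte-made members, the 5 initiating proteases gave 4 that rose, 1 that fell and a median of 0.45. C1rl, a C1r-like protease, stood at 68.5, 78.9 and 80.0 CPM in I/R and 134, 137 and 128 CPM in I/R+Rk2. Every treated liver exceeded every untreated liver by a wide margin, and the log2 fold change of 0.81 (SE 0.09, edgeR adjusted p = 0.000918) was the highest of the 31 members. C1ra, the C1r protease that cleaves C1s, stood at 159, 186 and 174 CPM in I/R and 245, 238 and 228 CPM in I/R+Rk2 (edgeR adjusted p = 0.00652, SE 0.09, log2 fold change 0.45). C1s1, the protease that cleaves C4 and C2, stood at 252, 301 and 258 CPM in I/R and 343, 377 and 378 CPM in I/R+Rk2 (edgeR adjusted p = 0.0121, SE 0.10, log2 fold change 0.44). The groups were apart for both genes. The call for C1s1 was lost without I/R replicate 3 (edgeR adjusted p = 0.0540, log2 fold change 0.40).

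These 3 genes lie together on chromosome 6, with C1rl at chr6:124493113-124510643, C1ra at chr6:124512405-124523443 and C1s1 at chr6:124530345-124542359. A second C1r gene, C1rb, follows at chr6:124570294-124581171 and can share reads with C1ra. Counts of C1ra and C1rb summed, an alternative added after seeing the data, gave 222, 263 and 243 CPM in I/R and 339, 326 and 305 CPM in I/R+Rk2, and passed the test (edgeR adjusted p = 0.00968, log2 fold change 0.42). The call thus held with the reads of both copies together.

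The counts of Masp1 and Masp2, genes for proteases of the lectin pathway, moved in opposite directions. They are counts per gene, so different transcripts of a gene were not told apart. Masp1, whose product activates MASP-2, stood at 74.6, 78.9 and 83.0 CPM in I/R and 54.1, 56.1 and 47.7 CPM in I/R+Rk2, with no overlap and a log2 fold change of -0.58 (SE 0.09, edgeR adjusted p = 0.00323). Masp2, whose product cleaves C4 and C2, stood at 103, 110 and 110 CPM in I/R and 173, 147 and 137 CPM in I/R+Rk2, also without overlap (edgeR adjusted p = 0.00845, SE 0.11, log2 fold change 0.50). In FPKM Masp1 fell from a mean of 28.4 to 17.0 while Masp2 went from 62.5 to 83.7. Masp2 shares 1817 of its 3307 exonic bases with Tardbp on the opposite strand, and since the strand setting of the counting is not given in the sources used here, reads of these genes may not have been told apart. Its call was lost with library size alone (edgeR adjusted p = 0.0585).

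**Figure D3:**
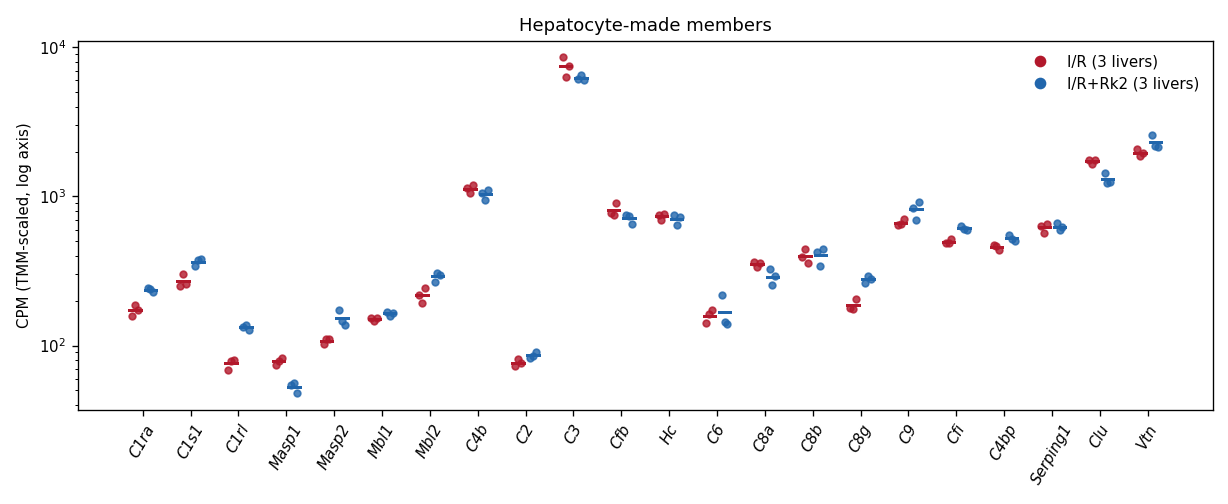
CPM (log axis) of the 22 hepatocyte-made members, with a point for each liver and a bar at the group mean, I/R in red and I/R+Rk2 in blue. C1rl, C1ra, C8g and Masp2 stand higher and Masp1 and Clu lower in all 3 treated livers, while C4b, C3, Hc, C8b and Serping1 overlap.

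Of the mannose-binding lectins, Mbl2 passed and Mbl1 did not. Mbl2 stood at 219, 192 and 245 CPM in I/R and 267, 308 and 298 CPM in I/R+Rk2 (edgeR adjusted p = 0.0235, SE 0.11, log2 fold change 0.41). The groups were apart, but the call was lost without either of I/R replicates 1 and 2 or I/R+Rk2 replicates 2 and 3, where the edgeR adjusted p was 0.0603, 0.0620, 0.0751 and 0.0612. The log2 fold change of Mbl2 in those fits was 0.33 to 0.43. Mbl1 stood at 152, 146 and 153 CPM in I/R and 169, 159 and 166 CPM in I/R+Rk2 (edgeR adjusted p = 0.190, log2 fold change 0.13), with the groups apart but the test not passed. Both encode lectins that bind mannose-rich surfaces, and their FPKM were of similar size in I/R, with means of 197 for Mbl2 and 162 for Mbl1.

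None of the 4 transcripts of the central convertase components passed the test. C3, the hub of the cascade and an acute-phase protein, stood at 8571, 6350 and 7472 CPM in I/R and 6156, 6481 and 6063 CPM in I/R+Rk2. The I/R livers spread widely and their lowest value fell inside the treated range, so the log2 fold change of -0.26 (SE 0.14) had an edgeR adjusted p of 0.172. In FPKM C3 was the most abundant member in I/R, at a mean of 1587 (SD 325, n = 3) against 1194 (SD 65.0, n = 3) in I/R+Rk2, and it ranked 57th to 76th among 21948 rows of the FPKM table in the 6 libraries. It made up 20 to 24.3% of the members' summed FPKM in I/R and 17.8 to 20.1% in I/R+Rk2.

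C4b, the substrate of C1s and MASP-2, stood at 1135, 1050 and 1186 CPM in I/R and 1057, 950 and 1110 CPM in I/R+Rk2 (edgeR adjusted p = 0.398, log2 fold change -0.11). Its near copy C4a had no row of its own in the count table, so C4b may hold reads of both. C2, which supplies the catalytic part of the classical convertase, stood at 72.7, 81.7 and 76.3 CPM in I/R and 82.5, 85.2 and 90.9 CPM in I/R+Rk2 (edgeR adjusted p = 0.153, log2 fold change 0.16). Cfb, its counterpart in the alternative pathway, stood at 780, 757 and 906 CPM in I/R and 751, 741 and 653 CPM in I/R+Rk2 (edgeR adjusted p = 0.202, log2 fold change -0.19). C2 and Cfb were each apart between groups by a small margin, in opposite directions.

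The values for C2 and Cfb carry a further limit, since the annotation holds a read-through gene, Gm20547, that shares 1656 exonic bases with C2 and 2246 with Cfb on the same strand. Counts of the 3 genes summed, an alternative added after seeing the data, were 959, 996 and 1060 CPM in I/R and 1120, 946 and 940 CPM in I/R+Rk2 (edgeR adjusted p = 0.982, SE 0.10, log2 fold change 0.00). With Cfb and Gm20547 alone summed it was -0.01 (SE 0.11). Over the whole locus no difference passed, and the unadjusted p was under 0.05 for 0 of the 4 convertase members, nor did DESeq2 call any.

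Among the 6 transcripts of the terminal pathway, C8g rose and the other 5 did not pass. C8g, which encodes the gamma chain of C8, stood at 179, 176 and 206 CPM in I/R and 263, 292 and 281 CPM in I/R+Rk2, with no overlap and a log2 fold change of 0.57 (SE 0.10, edgeR adjusted p = 0.00361). Its partner chains did not rise with it. C8a, the alpha chain to which the gamma chain is joined, stood at 361, 338 and 359 CPM in I/R and 325, 253 and 292 CPM in I/R+Rk2 (edgeR adjusted p = 0.0711, log2 fold change -0.28), lower in every treated liver but short of the threshold. C8a passed without I/R+Rk2 replicate 1 and in the fits with library size alone or FPKM. C8b, the beta chain, stood at 392, 443 and 357 CPM in I/R and 426, 343 and 443 CPM in I/R+Rk2 (edgeR adjusted p = 0.898, log2 fold change 0.02), with complete overlap.

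The FPKM ratios of C8g and C8a to C8b lay apart between the groups, although neither C8a nor C8b passed the test. Within a library the FPKM ratio of C8g to C8b was 1.09, 0.913 and 1.32 in I/R and 1.43, 1.91 and 1.48 in I/R+Rk2, higher in every treated liver. The ratio of C8a to C8b was 0.630, 0.562 and 0.67 in I/R and 0.508, 0.520 and 0.523 in I/R+Rk2, lower in every treated liver. C8a and C8b are neighbours on chromosome 4 that are read in opposite directions (chr4:104815679-104876398, minus strand, and chr4:104766317-104804548, plus strand), whereas C8g is on chromosome 2 (chr2:25498651-25501719, minus strand). These ratios were among 10 formed between partner transcripts and are given without a test. Groups without overlap were common, since 57.4% of all genes tested had none in CPM.

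**Figure D4:**
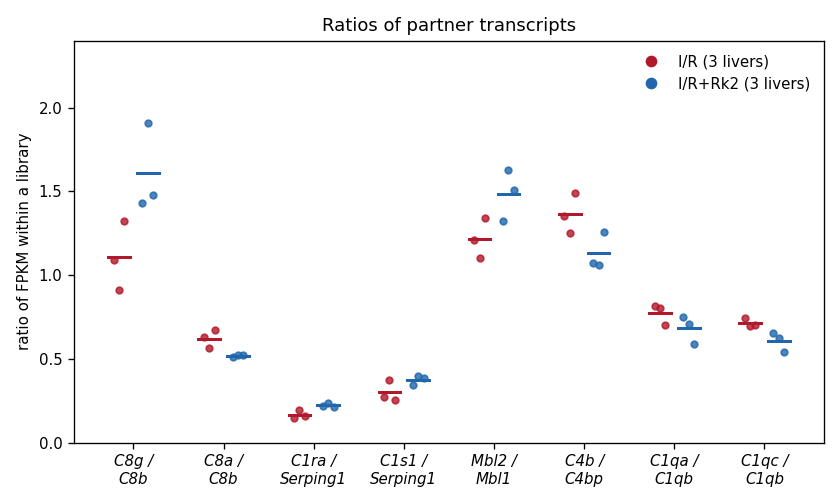
Ratio of FPKM within a library (vertical axis, from 0) for 8 pairs of partner transcripts, with a point for each liver and a bar at the group mean, I/R in red and I/R+Rk2 in blue. C8g over C8b and C1ra over Serping1 are higher and C8a over C8b and C1qc over C1qb lower in all 3 treated livers, and the other 4 pairs overlap.

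Hc, the gene for C5, stood at 749, 692 and 766 CPM in I/R and 746, 641 and 734 CPM in I/R+Rk2 (edgeR adjusted p = 0.662, log2 fold change -0.06). Its groups overlapped, in the same livers in which both C5a receptor transcripts fell. C6, which binds C5b, stood at 141, 164 and 172 CPM in I/R and 220, 144 and 139 CPM in I/R+Rk2 (edgeR adjusted p = 0.772, log2 fold change 0.07), with 1 treated liver above all others. C9, the pore-forming component, stood at 639, 652 and 708 CPM in I/R and 843, 696 and 917 CPM in I/R+Rk2 (edgeR adjusted p = 0.0850, log2 fold change 0.30), and it overlapped through the treated liver at 696 CPM. Without that library, I/R+Rk2 replicate 2, C9 passed at an edgeR adjusted p of 0.0374. Of the 6 terminal transcripts, 3 had an unadjusted p under 0.05.

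Of the 5 soluble regulators, Cfi rose, Clu fell and 3 did not pass. Cfi, the protease factor I that cuts C3b and C4b into inactive pieces, stood at 488, 491 and 516 CPM in I/R and 636, 609 and 595 CPM in I/R+Rk2, with no overlap (edgeR adjusted p = 0.0220, SE 0.08, log2 fold change 0.30). That call was lost without any 1 of 5 of the 6 libraries, at edgeR adjusted p values of 0.05 to 0.0635, and held only without I/R+Rk2 replicate 3 (0.0435). Clu, which encodes clusterin, a chaperone that blocks insertion of the attack complex, stood at 1749, 1649 and 1761 CPM in I/R and 1440, 1226 and 1245 CPM in I/R+Rk2, with no overlap (edgeR adjusted p = 0.0189, SE 0.10, log2 fold change -0.40). The call for Clu was lost without I/R replicate 1 or 3 (0.0523 and 0.0652) and without I/R+Rk2 replicate 2 or 3 (edgeR adjusted p = 0.0750 and 0.0707). The log2 fold change of Clu in those fits was -0.38 to -0.35.

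Vtn, for vitronectin, which also binds the nascent attack complex, stood at 2071, 1864 and 1962 CPM in I/R and 2597, 2165 and 2162 CPM in I/R+Rk2 (edgeR adjusted p = 0.140, log2 fold change 0.23), higher in every treated liver without passing. C4bp, the C4b-binding protein and cofactor of factor I, stood at 472, 464 and 435 CPM in I/R and 550, 518 and 502 CPM in I/R+Rk2 (edgeR adjusted p = 0.0998, log2 fold change 0.20), also without overlap. Serping1, the C1 inhibitor that inactivates C1r, C1s and the MASPs, stood at 636, 569 and 655 CPM in I/R and 662, 599 and 624 CPM in I/R+Rk2 (edgeR adjusted p = 0.882, log2 fold change 0.02), with the groups interleaved. With C1ra higher and Serping1 near level, the FPKM ratio of C1ra to Serping1 was 0.148, 0.193 and 0.157 in I/R and 0.219, 0.235 and 0.215 in I/R+Rk2, a description without a test.

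C3, Clu and Vtn, the 3 members with the highest FPKM, together made up 55.6 to 59.0% of the members' summed FPKM in I/R and 49.6 to 52.7% in I/R+Rk2. Clu had a mean of 1372 FPKM (SD 115, n = 3) in I/R and 896 FPKM (SD 120, n = 3) in I/R+Rk2, and Vtn 1136 and 1192 FPKM. The macrophage-made members made up 0.823 to 1.12% in I/R and 0.523 to 0.608% in I/R+Rk2. Within a library the FPKM ratio of C3 to Cfi, a substrate and its inactivating protease, was 7.74, 5.76 and 6.42 in I/R and 4.37, 4.76 and 4.54 in I/R+Rk2, lower in every treated liver. It was among the 10 ratios given without a test. C3 itself did not pass, and the call for Cfi was lost in several settings.

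Markers of the hepatocyte state moved beside the hepatocyte-made members. Of 15 hepatocyte markers 9 rose and 1 fell, with a median log2 fold change of 0.36, and Alb, the most abundant, rose by a log2 fold change of 0.70. Of 17 acute-phase transcripts 12 fell and none rose, all 17 being below 0, with a median of -0.62 and a summed level of 44287 to 54491 CPM in I/R and 26701 to 32451 CPM in I/R+Rk2. C3, at -0.26, lay above that median. The part of these changes in the complement values was not tested.

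The membrane regulators gave no call, and the unadjusted p was under 0.05 for 0 of the 2 tested and DESeq2 called 0. Cd55, decay-accelerating factor, stood at 8.13, 5.74 and 6.94 CPM in I/R and 6.05, 6.63 and 5.96 CPM in I/R+Rk2 (edgeR adjusted p = 0.473, log2 fold change -0.15). Cd59a, which blocks C9, had the largest standard error of the members tested, at 35.9, 21.6 and 13.8 CPM in I/R and 16.4, 18.9 and 62.5 CPM in I/R+Rk2. Its log2 fold change of 0.45 (SE 0.56, edgeR adjusted p = 0.547) rested on I/R+Rk2 replicate 3 and was -0.42 without it. Cd46, a cofactor of factor I that mice express mainly in testis, was at or under 0.468 CPM in every library.

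A wider list of 30 complement genes outside the set was counted in the same way, and 26 had a row and 24 were tested. Of these 7 fell, 5 rose and 12 did not pass the test, with a median log2 fold change of -0.06. Beside these counts, 23.7% of all genes tested fell and 20.3% rose. The genes named below were picked among those called. Itgam, the alpha chain of complement receptor 3 on myeloid cells, stood at 36.2, 38.2 and 27.0 CPM in I/R and 3.11, 2.28 and 1.41 CPM in I/R+Rk2 (edgeR adjusted p = 0.00024, log2 fold change -3.87), and its beta chain Itgb2 fell by 1.88 on the log2 scale. Itgam shares 3450 exonic bases with the annotated gene Gm49368 on the same strand. Cd93, a receptor first linked to C1q, fell by 1.33, and the pentraxins Apcs and Crp, which can recruit C1q, fell by 1.34 and 0.47 on the log2 scale. Cpn2, a subunit of the carboxypeptidase that inactivates C3a and C5a, stood at 227, 222 and 226 CPM in I/R and 296, 312 and 321 CPM in I/R+Rk2 and rose (edgeR adjusted p = 0.00353, log2 fold change 0.46).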

How the data were processed

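Liver RNA of 6 mice was sequenced by the authors on a BGISEQ platform. Per the submitters' processing notes FastQC 0.11.5, HISAT2 2.2.1 and StringTie 1.3.3 were used with the mm10 assembly. The annotation, the counting step and the strand setting are not given in the sources used here. The authors deposited a table of counts per gene (15454 rows) and a table of FPKM (21948 rows), in which they had scaled fragments by transcript length and library total. The count table also held a column of counts summed over the 6 libraries, which was not used. The other columns of values were matched to the 6 samples.

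Members were matched by exact gene name. The members and lists were chosen with earlier results of these data known. Counts were fitted across all genes in R 4.3.3 with edgeR 4.0.16 (filterByExpr, TMM, quasi-likelihood F test, 2 groups, no covariate), with Benjamini-Hochberg adjustment over 12411 genes and a threshold of 0.05. The study itself used DESeq2, with a design not given in the sources used here. A second limit was a fold of 2. FPKM served for levels and ratios between genes. The scripts were tested on simulated data with known changes. P-values set the difference between groups against the variation between 3 livers a group, which edgeR moderates across genes.

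Every member was named. Of each other list, at most the 5 genes with the smallest p and the most abundant were named, with C1rb, C4a, Gm20547 and Tardbp named beside C1ra, C4b, C2, Cfb and Masp2 for shared reads or exons, and Gm49368 beside Itgam. Alternatives were DESeq2 1.42.0, limma 3.58.1 on log2(FPKM + 1), filtered at mean FPKM 1 or not filtered, and on log2(FPKM + 0.1), RLE scaling or library size alone, no filter or at least 10 counts in every library, a replicate block and leaving out each library. Summed counts of overlapping or near-identical genes were added after seeing the data. Gene positions are from GENCODE M21 (GRCm38).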

Additional observations from a re-analysis of the deposited data

How the results depend on the processing

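No member that was called changed direction in any of 15 other settings. C1ra, C1rl and C8g (higher) and Masp1, Cfp and C5ar1 (lower) were called in all 15, and C3ar1 and C5ar2 in the 13 where they were tested. Cfi was not called in 9, Mbl2 in 8, C1s1 in 5, Clu in 4 and Masp2 in 2. With library size alone 3 members rose, the hepatocyte-made median was -0.01 and 3 of the other complement genes rose. With limma on log2(FPKM + 1), the same without a filter, and log2(FPKM + 0.1), 4, 3 and 4 members rose, the hepatocyte-made median was -0.00 in each, the macrophage-made median was -0.58, -0.71 and -0.62, and 3 other complement genes rose in each. In the filtered FPKM fits C3ar1 and C5ar2 were not tested, so the macrophage-made median was over the other members. Without the filter C3ar1 was at -0.98 and C5ar2 at -0.71, beside -2.47 and -2.12 with edgeR. Their mean levels, 1.42 and 0.962 FPKM in I/R and 0.225 and 0.198 FPKM in I/R+Rk2, lay near or below the 1 added before the log. The median of all genes in the FPKM fits was -0.12, -0.05 and -0.15. The causes of the other shifts were not tested. C1qa and C8a gained a call in 5 settings each, C1qc in 4 and C9 in 1.

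Leaving out 1 library gave 5 to 8 members that fell, 5 to 6 that rose, a hepatocyte-made median of 0.12 to 0.17, a macrophage-made median of -1.44 to -1.13, and a membrane-regulator median of -0.42 (without I/R+Rk2 replicate 3) to 0.44. Among the other complement genes, 5 to 7 fell and 4 to 6 rose. Each of these fits had 1 liver fewer. Over all genes they gave 2213 to 3058 fallen and 1640 to 2401 risen, beside 2938 and 2516 with every library. Same-numbered livers showed little common deviation (correlations of deviations from group means -0.0313, 0.0477 and -0.0243), and not every liver correlated best with its own number. With 3 livers a group these correlations cannot exclude a shared batch, so whether same-numbered livers were paired is not known. A replicate block kept all 13 calls, with 6 members that fell and 7 that rose, and lowered the calls over all genes from 2938 to 2595 fallen and 2516 to 2118 risen. Library size alone gave 3481 fallen and 1320 risen, and the FPKM fits 2633 to 3009 fallen and 1124 to 1172 risen. Counts were lowest for Cd46, which was not tested. A level of 3 counts corresponds to 0.0888 to 0.184 CPM, a floor that covers counting error only.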
